A study of Mus musculus with 6 samples.

Results

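The amino acid transporter genes described here are 47 genes, of 16123 with a value in liver, whose symbols start with Slc1a, Slc3a, Slc6a, Slc7a, Slc36a, Slc38a or Slc43a. They belong to the solute carrier families SLC1, SLC3, SLC6, SLC7, SLC36, SLC38 and SLC43, and the choice by symbol used no measured value. The study compared hepatic RNAseq of wild type (WT) mice with that of *Txndc5*-deficient (KO) mice, which lack a protein disulfide isomerase of the endoplasmic reticulum. Each genotype was represented by 3 libraries of polyA RNA, and each library was a pool of equal amounts of liver RNA from 3 mice. The WT mice carried the strain label C57BL/6Rj and the KO mice C57BL/6JRj-Txndc5<em2Mdnp>/Ciba, a line that descends from 1 male founder in which Cas9 had removed exon 3. Both genotypes were 2-month-old males born of heterozygous crosses, fed a purified chow diet for 4 weeks and fasted for 16 h, so the groups shared age, sex, diet and fasting. The deletion was inherited and not confined to hepatocytes.

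Amino acid transporters decide which amino acids a hepatocyte takes up from portal blood and which it releases, and in the fasted liver these amino acids feed gluconeogenesis, the urea cycle and the export of glutamine. The SLC38 family carries glutamine and other neutral amino acids with sodium, SLC7 members carry cationic amino acids alone or work as light chains that need a heavy chain of SLC3, and SLC6 members take up osmolytes, glycine and neurotransmitters with sodium and chloride. SLC1 members carry glutamate or exchange small neutral amino acids, SLC36 members carry small amino acids with protons, and SLC43 members facilitate the passage of large neutral amino acids. The symbols gather more than amino acid transporters. *Slc7a6os* and *Slc36a1os* are named for their neighbours and are no transporters, the product of *Slc43a3* carries purine nucleobases, that of *Slc6a8* carries creatine and that of *Slc6a4* serotonin.

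Between 44040160 and 46050030 clean reads were obtained per library. *Txndc5* stood at 2697 normalized reads in WT and 90.8 in KO, 29.7-fold lower. The deposited values are 1 per genotype, on the scale of reads divided by a size factor for library depth, and their ratio is shrunken toward 1, so that weakly expressed genes show smaller differences than their reads do. Reads per library could be recovered for 28 of the 47 genes, those with few reads. For the other 19 they could not, so no error of the genotype values could be estimated. The recovered libraries are called a, b and c within each genotype in descending order of size factor, since nothing ties them to pool numbers. The 2 libraries called a stood apart. Their deviations from the mean of their genotype went together over 3307 genes (Pearson's r of 0.61 across genes, which are no independent replicates), against -0.39 to 0.28 for the other pairs of a KO and a WT library.

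Hepatocyte markers dominated both genotypes, with all 5 listed genes (*Alb*, *Ttr*, *Apoa1*, *Serpina1c*, *Tat*) present and summing to 2500621 normalized reads in WT and 2287777 in KO. Kupffer cell markers summed to 1983 and 2306, those of sinusoidal endothelium to 1892 and 1786, of stellate cells to 2065 and 1778, and of cholangiocytes to 278 and 306 (5 of 5 genes each). The red cell markers were the list furthest from even, with 82899 normalized reads in WT and 128527 in KO and a ratio above 1 in all 4 of 5 genes with a mean of at least 10. Lymphocyte markers summed to 59.6 and 41.0 over the 2 of 5 genes that passed this filter, and neuronal markers to 62.6 and 69.3 (2 of 3 genes). Of the 4 pancreatic markers only *Cela1* passed, at 88.1 and 93.4. The others, *Cpa1*, *Prss2* and *Pnlip*, stood at 2.25, 1.43 and 0.52 in WT and 3.39, 1.83 and 0.61 in KO. Most of their KO reads were in library c. The 1 kidney marker of 4 stood at 16.1 and 11.3. No muscle marker of 3 reached a mean of 10. Whether these differences bear on the transporter values was not tested. In RNA of whole liver, fewer cells of a type and less RNA per cell cannot be told apart.

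A few genes made up nearly all of the summed level of the 47. Levels are compared between genes as the mean of both genotype values per kilobase (kb) of annotated exons, since longer transcripts give more reads. *Slc38a3* alone made up 51.5% of the summed level of the 47 genes, the top 3 genes 78.4% and the top 10 genes 96.1%. The median of all genes was 13.9 normalized reads per kb, which 20 of the 47 exceeded, and 6 lay at or above the 90th percentile. At the other end, 18 of the 47 had a mean genotype value under 10 normalized reads and 7 a mean under 1. The summed level was 13360 normalized reads per kb in WT and 13368 in KO.

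**Figure D1:**
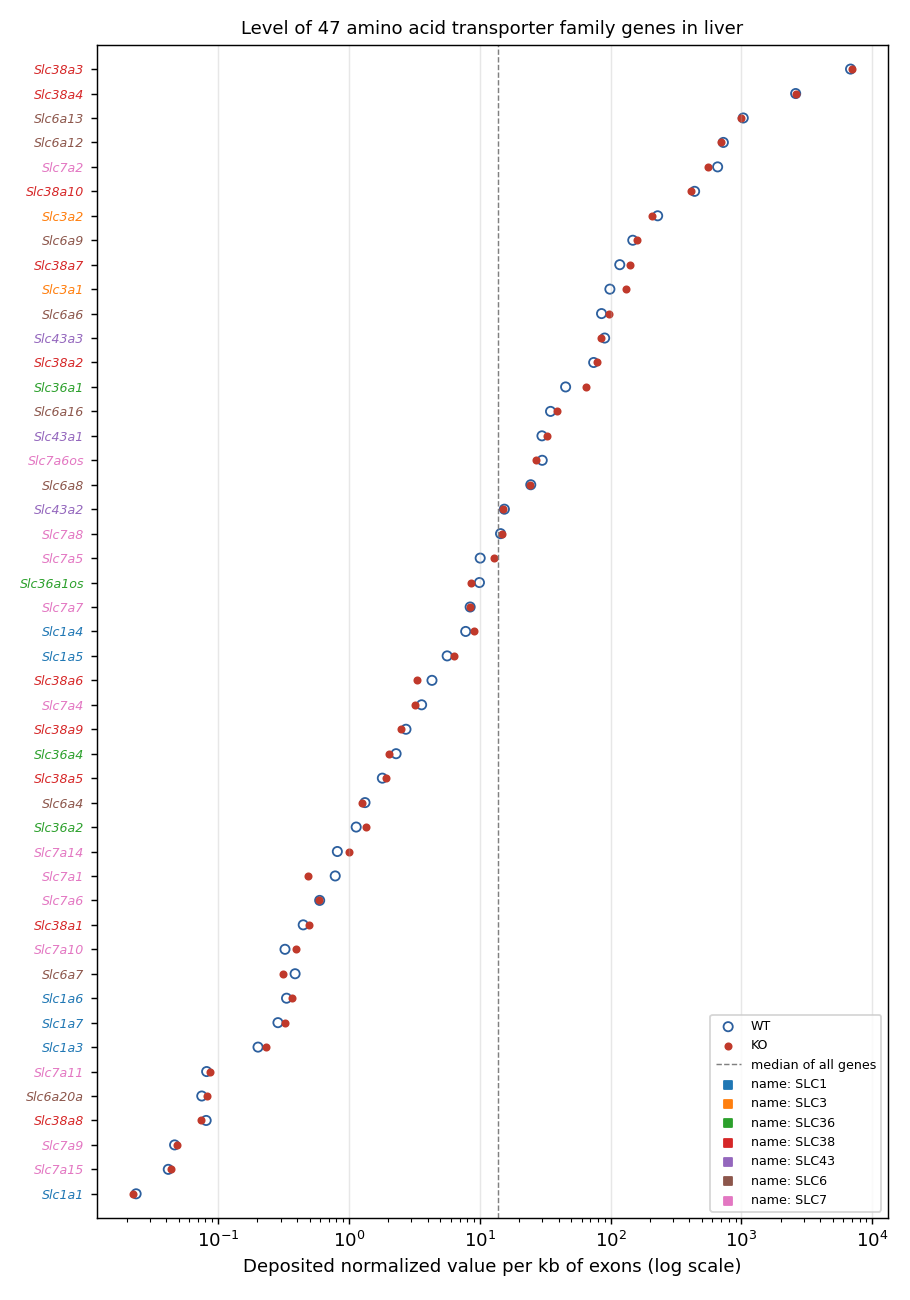
Level of each of the 47 genes in normalized reads per kb of exons (log axis) with 1 point for WT and 1 for KO, ordered by the mean of both. The levels span from 6884 for Slc38a3 to 0.023 for Slc1a1, and WT and KO points lie close together along the whole order. For the weakest genes this closeness comes with the shrinkage of the deposited values.

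The SLC38 family led, with 75.7% of the summed level. *Slc38a3* encodes SNAT3, which exchanges glutamine, histidine and asparagine with sodium against protons and can run in both directions. Its gene spans 107650634 to 107669530 of chromosome 9, minus strand (GENCODE M21, GRCm38, which is mm10), and stood at 35954 normalized reads in WT and 36699 in KO (log2 ratio of KO over WT 0.03). *Slc38a4*, for SNAT4, a sodium-coupled carrier of neutral amino acids that is typical of liver, stood at 11053 and 11032 (log2 ratio -0.0027). Per kb, *Slc38a3* was 2.66 times as abundant as *Slc38a4* and 89.9 times as abundant as *Slc38a2*, the SNAT2 carrier known to be induced by amino acid shortage, which stood at 656 normalized reads in WT and 698 in KO. *Slc38a10*, a widely expressed member without a settled role, stood at 2814 and 2627 (log2 ratio -0.10). The neighbour of *Slc38a2* on chromosome 15, *Slc38a1*, which is prominent in brain, had only 31 reads in the 3 KO libraries and 23 in the 3 WT libraries. Per kb, *Slc38a2* was 162 times as abundant as *Slc38a1*, although 44478 bases separate the genes.

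The SLC6 family held 15.2% of the summed level. Its leading members are a pair on the plus strand of chromosome 6, *Slc6a13* (121300227 to 121337733) and *Slc6a12* (121343076 to 121365775), separated by 5342 bases. *Slc6a13* encodes GAT2, which brings GABA and taurine into hepatocytes, and stood at 2995 normalized reads in WT and 2855 in KO. *Slc6a12* encodes BGT1, which carries betaine and GABA, and stood at 2218 and 2129. Their log2 ratios were -0.07 and -0.06, and per kb *Slc6a13* was 1.41 times as abundant as *Slc6a12*. *Slc6a9*, for the glycine transporter GlyT1, stood at 759 normalized reads in WT and 822 in KO (log2 ratio 0.12), and *Slc6a6*, for the taurine transporter, at 721 and 815 (log2 ratio 0.18). Of the exon bases of *Slc6a9*, 27.8% are shared with *Ccdc24* on the opposite strand, and because the counting is not stated to use strand, reads of the 2 genes cannot be told apart there. *Slc6a16*, *Slc6a8* and the weakly read *Slc6a4*, *Slc6a7* and *Slc6a20a* complete the family, with levels per kb from 36.9 down to 0.079 normalized reads.

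Among the cationic amino acid transporters, 1 gene carried almost the whole signal. *Slc7a2* encodes CAT2, which brings arginine, lysine and ornithine into hepatocytes. Its gene spans 40862396 to 40922308 of chromosome 8, plus strand, and stood at 6003 normalized reads in WT and 5036 in KO (log2 ratio -0.25). This was the lowest ratio among the 6 transporter genes with a mean over 1000, whose log2 ratios ran from -0.25 to 0.03. *Slc7a1*, for CAT1, the cationic transporter of most other tissues, had 7, 7 and 0 reads in KO libraries a, b and c against 9, 14 and 7 in the WT libraries. Divided by size factors these are 5.33, 6.76 and 0 normalized reads in KO (mean 4.03 ± 3.56, SD, n = 3) and 7.35, 15.9 and 8.56 in WT (10.6 ± 4.64, SD, n = 3). *Slc7a1* was thus the only 1 of the 28 genes with recovered reads in which all KO libraries lay below all WT libraries, and none lay above. Among the 4689 genes whose normalized reads summed to 20 to 400, the KO libraries lay below in 2.9% and above in 3.13%. Of the 28 genes, 15, *Slc7a1* among them, lie in that range, so the share does not cover the others. With so few reads *Slc7a1* was outside the main test. Fitted together with genes down to a sum of 20, its log2 difference was -1.59 ± 0.82 (SE), with an adjusted p of 0.999 (limma, Benjamini-Hochberg). Per kb, *Slc7a2* was 952 times as abundant as *Slc7a1*. *Slc7a4*, whose product resembles these carriers but is not known to transport cationic amino acids, had 41 reads in each genotype.

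The heteromeric transporters pair a heavy chain with a light chain through a disulfide bond. *Slc3a2* encodes the heavy chain 4F2hc, which brings its light chains to the plasma membrane, and stood at 807 normalized reads in WT and 731 in KO (log2 ratio -0.14). Its level of 218 normalized reads per kb was 6.11 times the summed level of its 6 light chains, 35.6 normalized reads per kb (6.74 times in WT and 5.54 times in KO). The light chains *Slc7a5* (LAT1) and *Slc7a8* (LAT2) carry large neutral amino acids, *Slc7a7* and *Slc7a6* exchange cationic for neutral amino acids, *Slc7a10* carries small neutral amino acids, and *Slc7a11* (xCT) exchanges cystine for glutamate. *Slc7a8* had 80, 57 and 96 reads in KO libraries a, b and c and 79, 64 and 64 in WT, or 74.8 ± 29.25 normalized reads in KO and 71.85 ± 6.93 in WT (SD, n = 3 each). *Slc7a5* followed with 49.3 ± 28.05 in KO and 35.9 ± 9.34 in WT, and *Slc7a7* with 28.01 ± 9.37 in KO and 28.02 ± 3.41 in WT. *Slc7a6* had 9 reads in each genotype and *Slc7a10* had 6 reads, all in KO library a. Some of these genes share exon bases with a gene on the opposite strand that has more reads, 6.998% of *Slc7a7* with *Oxa1l* (1556 normalized reads in WT and 1325 in KO) and 17.9% of *Slc7a10* with *Lrp3* (527 and 547). *Slc7a11* had 4 reads in KO and 3 in WT. The levels per kb of the 6 light chains thus ran from 14.6 normalized reads for *Slc7a8* down to 0.084 for *Slc7a11*, with no light chain near the level of the heavy chain.

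The other heavy chain was present almost without the light chain *Slc7a9*, the only 1 set beside it here. *Slc3a1* encodes rBAT, which in kidney and gut joins *Slc7a9* to take up cystine and cationic amino acids. Its gene spans 85028376 to 85064236 of chromosome 17, plus strand, and stood at 224 normalized reads in WT and 299 in KO, a ratio of 1.34-fold (log2 0.42). *Slc7a9* gave 1 read in the 6 libraries, in KO library a. Of the exon bases of *Slc3a1*, 26.5% are shared with *Prepl*, a peptidase-like gene on the opposite strand that stood at 125 normalized reads in WT and 155 in KO (log2 ratio 0.31), and reads there cannot be told apart without strand.

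**Figure D2:**
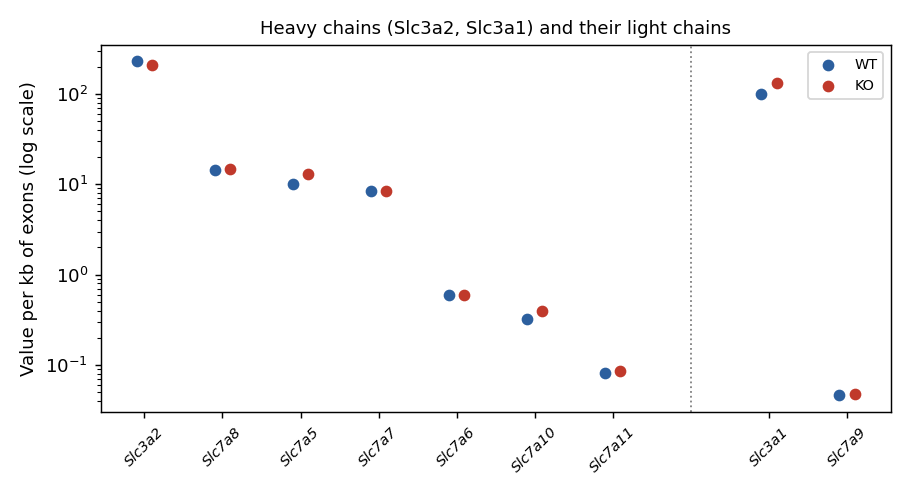
Levels of the heavy chains Slc3a2 and Slc3a1 and of their light chains in normalized reads per kb of exons (log axis), with 1 point per genotype. Slc3a2 stands at 218 over light chains of at most 14.6, and Slc3a1 at 115 over 0.047 for Slc7a9.

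Transporters of the lysosome and proton-coupled transporters held the gene with the highest ratio of all. *Slc36a1* encodes PAT1, a proton-coupled carrier of glycine, alanine and proline on lysosomes and plasma membrane. Its gene spans 55204350 to 55236330 of chromosome 11, plus strand, and stood at 255 normalized reads in WT and 367 in KO, a ratio of 1.44-fold (log2 0.53). *Slc38a7*, which releases glutamine and asparagine from lysosomes, stood at 486 and 582, a ratio of 1.197-fold (log2 0.26). These 2 genes had too many reads for recovery per library, so no error can be set beside their ratios. *Slc38a9*, the lysosomal arginine sensor upstream of mTORC1, had 72, 35 and 32 reads in KO and 86, 26 and 31 in WT, which gave 41.6 ± 11.55 normalized reads in KO and 45.9 ± 21.47 in WT (SD, n = 3 each). In both genotypes the library called a was the highest for *Slc38a9*, at 1.57 times the mean of the other 2 in KO and 2.08 times in WT. *Slc36a4*, a proton-independent relative of PAT1, stood at 12.9 ± 5.82 in KO and 15.35 ± 5.195 in WT (SD, n = 3 each). *Slc7a14*, a lysosomal member of SLC7, had 36 reads in KO and 22 in WT.

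*Slc36a1* has a pair of measured neighbours on chromosome 11. *Slc36a1os*, a noncoding gene on the minus strand whose start lies 6486 bases from that of *Slc36a1*, had 39, 10 and 7 reads in KO libraries a, b and c and 54, 11 and 3 in WT. Its normalized reads were 15.8 ± 12.1 in KO and 20.1 ± 21.25 in WT (SD, n = 3 each), and library a stood 3.385 times above the mean of the other 2 in KO and 5.45 times in WT. *Slc36a2* had 19 of its 20 KO reads in library a, and 1, 7 and 0 reads in the WT libraries. The log2 ratios of the 3 genes were 0.53 for *Slc36a1*, -0.22 for *Slc36a1os* and 0.24 for *Slc36a2*, with the 2 weak genes decided by single libraries. The exons of the 3 genes share no bases.

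The promoter of *Slc36a1* is shown because this gene had the highest ratio and its window holds the letters CACGTG, the E-box to which the lysosomal regulators TFEB and MITF bind. The window is the 250 bases before the start of the gene in RefSeq (chr11:55204090-55204339, plus strand, GRCm38.p6), printed 5′ to 3′ with the E-box in capitals, 31 to 26 bases before the start.
Slc36a1: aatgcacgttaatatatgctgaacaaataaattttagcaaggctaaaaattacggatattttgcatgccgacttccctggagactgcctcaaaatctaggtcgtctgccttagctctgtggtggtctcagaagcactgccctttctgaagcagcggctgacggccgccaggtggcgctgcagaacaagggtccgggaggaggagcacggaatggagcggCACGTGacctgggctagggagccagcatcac
CACGTG reads the same on both strands and was found in 6.02% of all 32851 promoter windows of that length. Of the 47 genes, 36 had at least 1 RefSeq window, 55 windows in all, and 8 of these windows (14.5%), in 8 genes, held it. The 8 genes are *Slc1a6*, *Slc1a7*, *Slc36a1*, *Slc38a5*, *Slc38a7*, *Slc43a1*, *Slc6a16* and *Slc7a14*. *Slc36a1*, *Slc38a7*, *Slc43a1* and *Slc6a16* had means of at least 10 and log2 ratios from 0.14 to 0.53, and the other 4 had means under 10. No error can be set beside the ratios of *Slc36a1*, *Slc38a7*, *Slc43a1* and *Slc6a16*, whose reads per library were not recovered. Genes that are not among the 8 reached 0.42 (*Slc3a1*) and -0.39 (*Slc38a6*). Whether the motif bears on the ratios was not tested.

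The promoter of *Slc7a11* is shown because xCT is a textbook target of ATF4, the factor of the amino acid response, and yet gave only 7 reads in the 6 libraries. The ATF4 motif was searched as TGATGNAA on both strands, and a match can share at most 2 letters with a match of CACGTG. The window (chr3:50443614-50443863, minus strand, GRCm38.p6) holds it in both orientations, in capitals, at 66 to 59 and at 47 to 40 bases before the RefSeq start.
Slc7a11: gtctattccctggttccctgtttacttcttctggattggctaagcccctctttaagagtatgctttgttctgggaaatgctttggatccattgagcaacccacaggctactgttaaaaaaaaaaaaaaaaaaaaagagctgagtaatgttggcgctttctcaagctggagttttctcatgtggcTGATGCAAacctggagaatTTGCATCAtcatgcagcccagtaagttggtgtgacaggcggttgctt
TGATGNAA was found in 3.45% of all windows and in 3 of the 55 windows of the transporter genes (5.45%), those of *Slc7a11* and *Slc7a7*. A match of letters is no evidence of binding.

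Over the 29 transporter genes with a mean of at least 10, the genotypes differed little in the deposited values. None was past 1.5-fold in either direction, where 1.57% of the 11367 genes of the table with such a mean were higher in KO past that fold and 5.79% were lower. The log2 ratio was above 0 in 14 and below 0 in 15 of the 29, with a median of -0.0027 against -0.0472 over all genes and a range from -0.39 to 0.53. Past 1.2-fold, a fold chosen after the values were seen, 3 of the 29 were higher in KO (*Slc36a1*, *Slc3a1* and *Slc7a5*) and 1 was lower (*Slc38a6*), where 11.7% and 21.1% of all genes were. The median distance of the log2 ratio from 0 was 0.14 in the transporter genes and 0.18 over all genes. Of the 29, 27 lay between the 5th and 95th percentiles of all genes of similar mean, and *Slc36a1* and *Slc3a1* lay above them. These counts describe 1 value per genotype and carry no test.

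**Figure D3:**
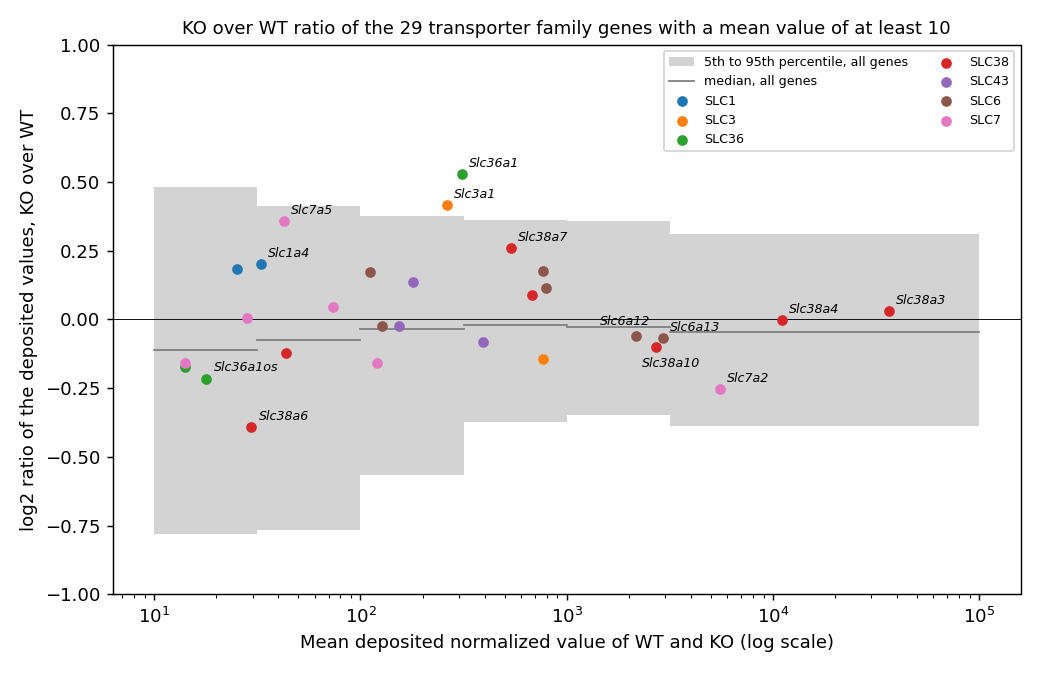
Log2 ratio of KO over WT of the deposited values against the mean of both (log axis, normalized reads) for the transporter genes with a mean of at least 10, coloured by family. Grey bands run from the 5th to the 95th percentile of all genes of similar mean, with their median as a line. Slc36a1 (0.53) and Slc3a1 (0.42) lie above the band, and the other 27 genes lie within it.

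Of the 10 ratios furthest from 1 among the 29 genes, 4 belonged to transporters with recovered reads, beside that of the noncoding *Slc36a1os* given above. *Slc38a6*, an SLC38 member prominent in brain, had 39, 27 and 16 reads in KO and 51, 34 and 19 in WT, or 24.6 ± 5.96 and 34.5 ± 9.88 normalized reads (SD, n = 3 each). *Slc7a5* had 38, 39 and 72 reads in KO and 39, 41 and 24 in WT, so that its higher KO mean came from library c alone. *Slc1a4* (ASCT1) and *Slc1a5* (ASCT2) exchange small neutral amino acids and had the highest levels of the 6 SLC1 genes described here. *Slc1a4* had 38, 24 and 49 reads in KO and 23, 24 and 36 in WT, or 35.8 ± 17.1 and 30.03 ± 12.8 normalized reads (SD, n = 3 each). *Slc1a5* had 40, 33 and 17 reads in KO and 37, 17 and 16 in WT, or 27.2 ± 6.95 and 23.0 ± 6.21 normalized reads (SD, n = 3 each). In each of these genes the KO and WT libraries overlapped.

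**Figure D4:**
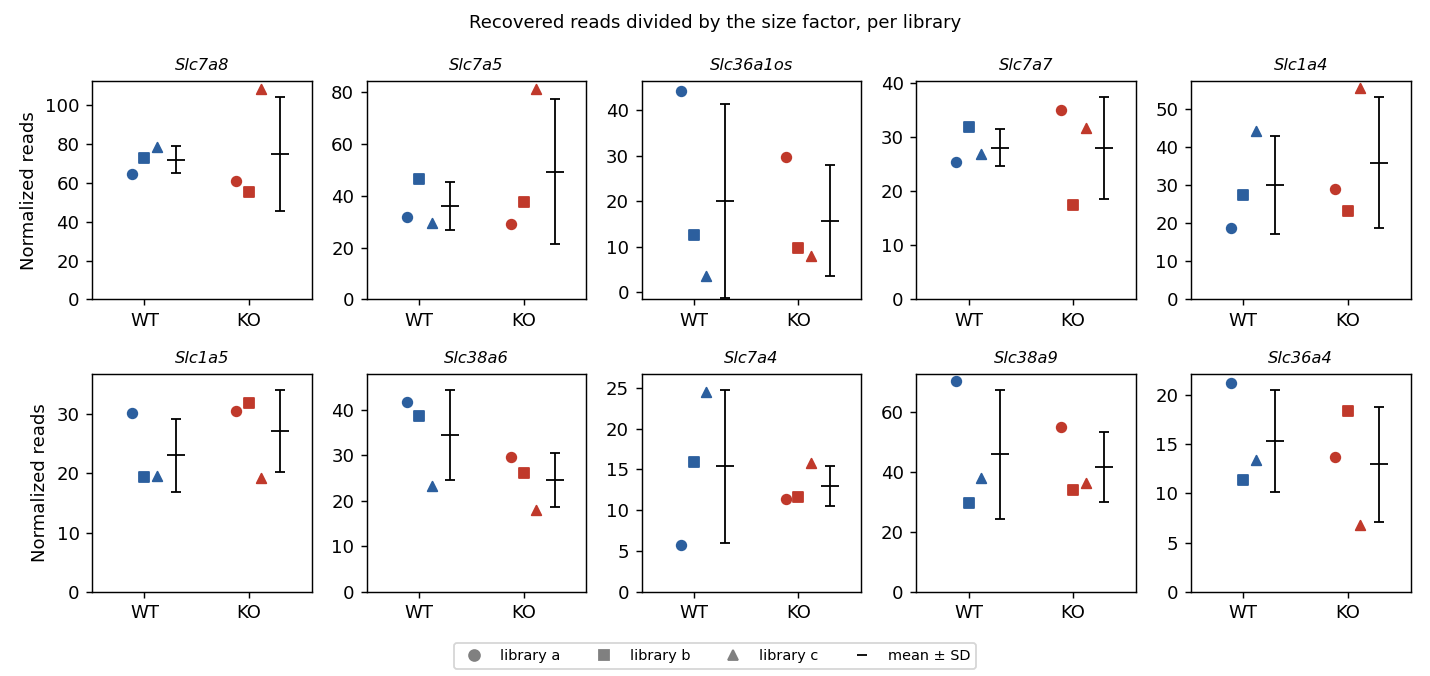
Normalized reads per library with the mean and SD beside them for the 10 genes with recovered reads and at least 60 normalized reads in all. Circles, squares and triangles stand for libraries a, b and c. KO and WT points overlap in all 10 genes, and the circle is the high point of Slc36a1os, Slc38a6 and Slc38a9 in both genotypes.

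Whether KO differed from WT beyond the spread between pools was tested with limma on log2(normalized reads + 1) over the 3307 genes whose recovered normalized reads summed to 60 to 400, of which 9 are transporter genes. None of the 9 had an adjusted p under 0.05 (Benjamini-Hochberg), as none of the 3307 genes had (0%), and none had an unadjusted p under 0.05, where 54 of the 3307 did (1.63%). The log2 differences of KO minus WT were 0.34 ± 0.47 (SE) for *Slc7a5*, 0.23 ± 0.50 for *Slc1a4* and 0.23 ± 0.44 for *Slc1a5*. They were -0.46 ± 0.45 for *Slc38a6*, -0.28 ± 0.55 for *Slc36a4*, -0.08 ± 0.44 for *Slc38a9*, -0.05 ± 0.45 for *Slc7a7*, -0.05 ± 0.60 for *Slc7a4* and 0.01 ± 0.81 for *Slc36a1os*. All 9 adjusted p were 0.999 in limma with Benjamini-Hochberg adjustment, and the KO and WT libraries overlapped in all 9, where 3.08% of the fitted genes had all KO libraries above and 2.63% all below. The 95% intervals were wide. That of *Slc38a6* ran from -1.44 to 0.53 and that of *Slc7a5* from -0.70 to 1.37, and the half-widths of the 9 genes lay between 0.970 and 1.78, factors of 1.96 and 3.43, against a median of 1.11 over all fitted genes. Differences within these intervals remain possible. The intervals are no limit of detection, because calls were made after adjustment over the 3307 genes. Without both libraries called a, the log2 differences of *Slc38a6*, *Slc7a5* and *Slc1a5* were -0.45, 0.57 and 0.33, that of *Slc7a4* was -0.51, and that of *Slc38a9* turned to 0.06.

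**Figure D5:**
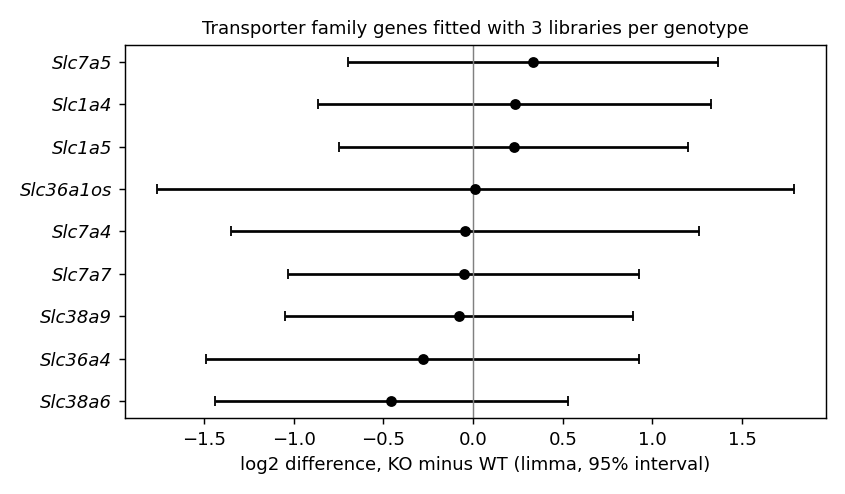
Log2 difference of KO minus WT with its 95% interval from limma for the 9 transporter genes in the test (points and bars). All 9 intervals include 0, from -0.46 for Slc38a6 to 0.34 for Slc7a5.

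The SLC43 family lay within the spread of all genes. *Slc43a3* stood at 402 normalized reads in WT and 380 in KO, and *Slc43a1* (LAT3) and *Slc43a2* (LAT4), which let large neutral amino acids pass in both directions, had log2 ratios of 0.14 and -0.03. *Slc1a1*, *Slc1a3*, *Slc1a6* and *Slc1a7*, which encode glutamate transporters, were barely read. *Slc1a3* had 9 reads in KO and 4 in WT, *Slc1a7* 5 and 2, *Slc1a6* 3 and 1, and *Slc1a1* 1 read in all, in a WT library. *Slc38a5*, *Slc38a8*, *Slc7a15* and the others with a mean under 10 are counted among the 18 weak genes, and with 0 to 36 reads per genotype their ratios are not read as differences.

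Genes that sense or answer amino acid supply were set beside the transporters from lists chosen with earlier results known. Of 28 targets of ATF4, 21 had a mean of at least 10, 8 with a ratio above and 13 with a ratio below 1, and none was higher and 1 lower past 1.5-fold, where 1.57% and 5.79% of all genes were. That gene was *Asns*, for asparagine synthetase, with 23, 48 and 17 reads in KO libraries a, b and c and 52, 42 and 69 in WT. Its log2 difference was -1.12 ± 0.49 (SE), with an adjusted p of 0.999 (limma, Benjamini-Hochberg). *Asns* was among the 54 genes with an unadjusted p under 0.05, and its KO and WT libraries overlapped. In the opposite direction, *Sesn2* stood at 172.8 normalized reads in WT and 250.4 in KO (log2 ratio 0.535). *Atf5* was lower in KO, at 22750.4 in WT and 15836.5 in KO (log2 ratio -0.52). Of 29 genes of amino acid sensing by mTORC1, 24 passed the filter, 10 with a ratio above and 14 below 1. *Fnip2*, a partner of folliculin, was the only 1 past 1.5-fold, at 78.7 normalized reads in WT and 142 in KO. This stands beside the 1.57% of all genes that were higher past that fold. *Fnip1* of the same list went the other way, at 109.5 in WT and 75.95 in KO (log2 ratio -0.53). The median log2 ratio of the list was -0.05. None of 9 genes listed as further transporters, mainly of amino acids and peptides (of 15 listed), was past 1.5-fold, with a median log2 ratio of -0.0046. The same held for 7 genes listed as partners of transporters (of 10 listed), with a median log2 ratio of 0.05.

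Because *Slc38a3* and other glutamine transporters differ in their place along the liver lobule, genes of the lobule's zones were read as well. Of 7 pericentral genes, 5 had a ratio above 1 (median log2 ratio 0.20). The highest ratio of the 7 was that of *Glul*, for glutamine synthetase, at 12521 normalized reads in WT and 17099 in KO. *Oat*, for ornithine aminotransferase, followed at 13340 and 18135. *Cyp1a2* and *Lgr5* had ratios slightly below 1 (log2 -0.0058 and -0.07). Of 7 periportal genes, 1 had a ratio above 1 (median log2 ratio -0.11). That gene was *Pck1*, of gluconeogenesis, at 53229 and 64671, the furthest of the 7 from even. Below 1 were, among others, *Ass1* of the urea cycle at 132522 and 113115 and *Gls2*, the liver glutaminase, at 7331 and 6786. *Sds* and *Cdh1*, also counted below 1, were close to even (log2 ratios -0.0039 and -0.0097). None of the 14 was past 1.5-fold, where 1.57% of all genes with a mean of at least 10 were higher and 5.79% lower. The median log2 ratio of all these genes was -0.0472. Whether these differences move the transporter values was not tested.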

How the data were processed

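The 6 libraries were grouped by the genotype in their labels. Reads of a sequencing service were filtered and mapped by the authors. HISAT2, StringTie, Cufflinks, GATK, Bowtie2, RSEM and the build mm10 are named in the submitters' processing notes without roles or versions. The authors deposited read totals and mapping rates per library as counts and percent values, counts of splicing events per library, and for 16123 genes an expression signal per genotype, whose mean equals the mean over libraries of reads divided by size factors and whose ratio is shrunken. The deposited fold changes and p-values were not used.

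Reads per library were recovered by enumerating the whole reads whose sum gives the deposited signal (15 significant digits), with size factors read from values shared by at least 20 genes. Where normalized reads summed to at most 400, 8063 of 8081 genes (99.8%) were resolved, and 491 of 973 between 400 and about 600. In 1077 of 1077 genes resolved by a single set of reads and with a log2 ratio beyond 0.5, the direction was the deposited one. These are 84664 to 196805 reads per library, so only weakly expressed genes were tested. The recovery and the fit were tested on simulated data. The simulated reads held no deviation shared between libraries. How the fit behaves with the shared deviations of the libraries called a was therefore not tested by simulation.

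Genotypes were compared with limma 3.58.1 (mean-variance trend, two-sided, Benjamini-Hochberg over all fitted genes) on log2(normalized reads + 1), without covariates, in R 4.3.3. edgeR 4.0.16 on the recovered reads was an alternative. The design expected 1 combined value per genotype, and genotype values were therefore described without a test. The p-values set the genotype difference against the spread between libraries, each a pool of 3 mice, moderated over all fitted genes. At few reads this spread holds counting noise as well as variation between pools. Ratios were described for genes with a mean of at least 10. Levels between genes are per kb of the union of exons in GENCODE M21 (GRCm38), which gave a length to 98.95% of genes. Promoters are from RefSeq (GRCm38.p6).

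Values are given in full for the 10 highest levels per kb, the 10 largest ratios, heavy and light chains, and any gene whose libraries do not overlap. *Slc7a1* falls outside this last rule, which is for genes in the test, and was named after its reads were seen. The genes described and the lists were chosen with earlier results of these data known. One gene that the symbols would admit is not reported here.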

Additional observations from a re-analysis of the deposited data

How the results depend on the processing

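No transporter gene passed the test under any alternative run, with a lowest adjusted p of 0.836 (limma or edgeR, Benjamini-Hochberg). Over the 3307 genes the count past the threshold was 0, and 2 (both lower in KO) with a term that sets the libraries called a apart. Genes with an unadjusted p under 0.05 numbered 54, with 21 to 169 as single libraries were left out, 251 with that term and 154 without both libraries called a. edgeR called 0 after adjustment and 66 at an unadjusted p under 0.05. Transporter genes past 1.5-fold numbered 0, but 1 (*Slc7a1*, lower) with a mean of at least 1 or with no filter, and 4 at 1.2-fold. Of the 8 alternatives that left out no single library, 4 leave the log2 differences of the 9 fitted genes as they are by construction (other limits on the sum, the added term). Under the other 4, 30 of 36 differences kept their direction. The 6 that did not were *Slc38a9* (0.013 with TMM factors, 0.060 without both libraries called a), *Slc7a4* (0.026 with TMM), *Slc7a7* (0.034 with TMM, 0.0038 with edgeR) and *Slc36a1os* (-0.36 with edgeR). Leaving out single libraries turned 16 of 54, with ranges of -0.12 to 0.54 for *Slc1a4*, -0.79 to 0.85 for *Slc36a1os*, -0.57 to 0.091 for *Slc36a4*, -0.34 to 0.27 for *Slc38a9*, -0.59 to 0.37 for *Slc7a4*, -0.090 to 0.64 for *Slc7a5* and -0.24 to 0.25 for *Slc7a7*. *Slc38a6* stayed between -0.71 and -0.26 and *Slc1a5* between 0.099 and 0.45. The cause was not tested. Centring on all genes moved the median log2 ratio of the transporter genes from -0.0027 to 0.045. The top 10 per kb shared 9 genes with the order by either other length, *Slc43a3* replacing *Slc3a1*.

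No paired analysis was possible because the genotypes share only pool number 2 and the recovered libraries carry no pool number. The 19 genes with many reads, among them *Slc38a3*, *Slc7a2* and *Slc36a1*, have no error, and the weak genes are limited by their few reads.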
